A study of Mus musculus with 10 samples.

Results

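Heat shock proteins, their co-chaperones and the chaperonins are the cell's protein folding machinery, and 76 of their genes were read on arrays of mouse brain. A probe set, the group of short oligonucleotides that reads 1 transcript, was taken where its only annotated symbol started with Hsp, with Dnaj or Bag and a digit, or with Cct and a digit from 2 to 8, or was Tcp1. Hspg2, a matrix proteoglycan that shares only the letters, was left out. The rule used names and no measured value, and it took 153 of the 22690 probe sets of the array and 76 of the 12393 genes with a probe set of their own. The brains came from C57BL/6 mice, an inbred strain, and the labels name no allele, agent or treatment. Total RNA was hybridised to 10 Affymetrix MOE430A arrays. At 1 week of age 3 arrays were labelled female and 3 labelled male, and at 8 weeks 2 were labelled female and 2 labelled male. The labels number the brains within a group and do not say that they came from separate animals, so p-values measure the spread between these samples.

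Hsp70 proteins bind unfolded stretches of other proteins and release them in a cycle driven by ATP. J domain proteins, encoded by the Dnaj genes, hand clients to Hsp70 and speed its use of ATP, whereas Hsp110 and Bag proteins open Hsp70 to let ADP go. Hsp90 acts later on near-folded clients, small heat shock proteins hold unfolding proteins without ATP, and chaperonins enclose a folding chain within a ring. Actin and tubulin, the main building blocks of the growing axon, depend on the cytosolic chaperonin ring made by Tcp1 and the Cct genes. Some of these genes are switched on by heat and unfolded protein and others are made at all times.

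Heat shock factors, the proteins that switch on these genes under stress, bind repeats of GAA alternating with its reverse complement TTC. A script searched for GAANNTTC, which reads the same on both strands, in RefSeq promoters of GRCm38.p6 that run from 250 bases before to 50 bases after a gene's start. A promoter was found for 63 of the 76 genes. GAANNTTC was in 14 of these 63 (22.2%), beside 9.04% of all 27025 genes of the promoter table. The turned order TTCNNGAA, also the same on both strands, was in 8 of 63 (12.7%) beside 9.60% of all genes. A longer run of 3 alternating units, GAANNTTC followed after any 2 bases by GAA, was sought on both strands and always overlaps both shorter ones. It was in 4 of 63 (6.35%) beside 0.662%, namely Dnajb6, Hspd1, Hspe1 and Hsph1. The windows below show the letters in genes that come up in the results: the classic inducible gene Hspa1b, Dnaja4, which rose with age, and Dnajb6, Hspe1 and Cct2, which fell. Capitals mark bases covered by GAANNTTC or TTCNNGAA, and each line reads 5′ to 3′ on the strand of the gene.

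Hspa1b, chr17:34959299-34959378, minus strand: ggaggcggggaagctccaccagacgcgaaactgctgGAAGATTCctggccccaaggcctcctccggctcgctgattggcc
Dnaja4, chr9:54699458-54699487, plus strand: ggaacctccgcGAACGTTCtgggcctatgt
Dnaja4, chr9:54699496-54699525, plus strand: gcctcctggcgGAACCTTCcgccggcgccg
Dnajb6, chr5:29735820-29735896, plus strand: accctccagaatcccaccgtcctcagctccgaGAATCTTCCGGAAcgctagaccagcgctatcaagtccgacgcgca
Hspe1, chr1:55088053-55088082, plus strand: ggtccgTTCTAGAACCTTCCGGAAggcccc
Cct2, chr10:117063399-117063428, minus strand: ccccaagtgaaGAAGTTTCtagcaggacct

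Each of these windows holds 1 or more spaced pairs, and those of Dnajb6 and Hspe1 hold the longer run. A match is a description of letters and not a bound site. GAANNTTC was in 5 of 18 promoters of genes that were higher at 8 weeks (Bag3, Dnaja4, Dnajc27, Hspb8 and Hsph1) and in 6 of 14 of those that were lower (Cct2, Dnaja1, Dnajb6, Hspb3, Hspd1 and Hspe1). It was in 1 of 20 genes that did not pass, Hspb1, and in 2 of 11 untested ones, Hspa1a and Hspa1b. The promoter windows of Hspd1 and Hspe1, which lie head to head on chromosome 1, overlap, so their matches are not separate.

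The comparison asked how the brain at 8 weeks differed from that at 1 week. Values below are quantile-normalized intensities, which give every array the same overall distribution, and changes are differences in log2(intensity + 24) at 8 weeks minus 1 week ± SE from limma, with p-values adjusted by the Benjamini-Hochberg method over all genes and a threshold of 0.05. A gene was read by its brightest probe set. Directions are therefore relative to the whole array: on the deposited scale the median of all tested genes stood 0.47 higher at 8 weeks, and after scaling to the spike-in controls 0.14 higher. Deposited trimmed means ran from 139 to 319, with the lowest array at 8 weeks (256) above the highest at 1 week (237). Correlations of log2 values were 0.973 to 0.981 within groups and 0.933 to 0.951 between ages, and the actin 3′ to 5′ signal ratio averaged 1.03 at 1 week and 1.11 at 8 weeks. The levels of Xist and Eif2s3y opposed the sex label on 4 arrays at 1 week (replicates 1 and 2 labelled female, 2 and 3 labelled male), and replicate 3 labelled female held both, so a label is not read as a sex at 1 week. Summed markers of neurons, the main cells of the labelled tissue, were 11588 to 12506 at 1 week and 11993 to 12718 at 8 weeks. Of these 5 markers 2 were higher and 1 was lower at 8 weeks, so the sum hides changes in both directions. No list had a defining marker at 0. Other markers moved with age: all 4 of immature neurons fell (6896 to 9646 against 604 to 867), as did the 3 tested of 4 for dividing cells (629 to 1185 against 72.3 to 101). Of astrocyte markers 4 of 5 rose (3358 to 5027 against 9876 to 10986), and of myelin markers 3 of 4 tested (1485 to 7322 against 9595 to 12540). Microglial markers rose in 4 of 4 tested (1080 to 1185 against 1553 to 2051). Cerebellar and pituitary markers rose in 2 of 3 each, with uneven arrays at 8 weeks (1067 to 6524 and 951 to 13220), and 2 of 3 meningeal markers fell (903 to 5060 against 362 to 506). Their part in the results was not tested, and in whole brain fewer cells of a type cannot be told apart from less RNA per cell.

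Of the 76 genes, 63 passed the filter on dim probe sets. At 8 weeks 22 of them were higher, 16 were lower and 25 did not pass, so 38 of 63 were called where 45.9% of all 8148 genes were (21.9% higher and 24% lower). Their median change was 0.05, beside -0.02 for all genes. The arrays of the 2 ages did not overlap in 30 of the 63, 19 higher and 11 lower at 8 weeks, beside 35.9% of all genes. By probe set, 33 rose and 32 fell of 114 tested, beside 46% of all 13576 probe sets called. On the deposited scale the split was 42 higher and 0 lower (64.6% and 4.49% of all genes), and on the spike-in scale 22 higher and 3 lower (22% and 8.61%). A smaller fit by age alone left out the 4 arrays that oppose their sex label. At 1 week it kept only replicate 3 labelled female and replicate 1 labelled male. There 19 of 65 tested members were higher and 7 lower, 5 of the 7 in the Cct ring. Of all 8143 genes 1266 were higher and 1154 lower. In that smaller fit 14 of the 38 called genes kept their sign and did not pass (limma, adjusted p from 0.0507 to 0.376). Of these 9 were lower at 8 weeks (Hspb3, Dnajb8, Bag2, Dnajb11, Dnajc9, Dnaja1, Dnajb6, Cct8 and Hspd1) and 5 higher (Dnajc30, Dnajc18, Dnajc8, Dnajc4 and Hspa2). The plot of changes by family shows where the directions gathered: the Hsp110 genes on the higher side, the Cct genes on the lower.

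**Figure D1:**
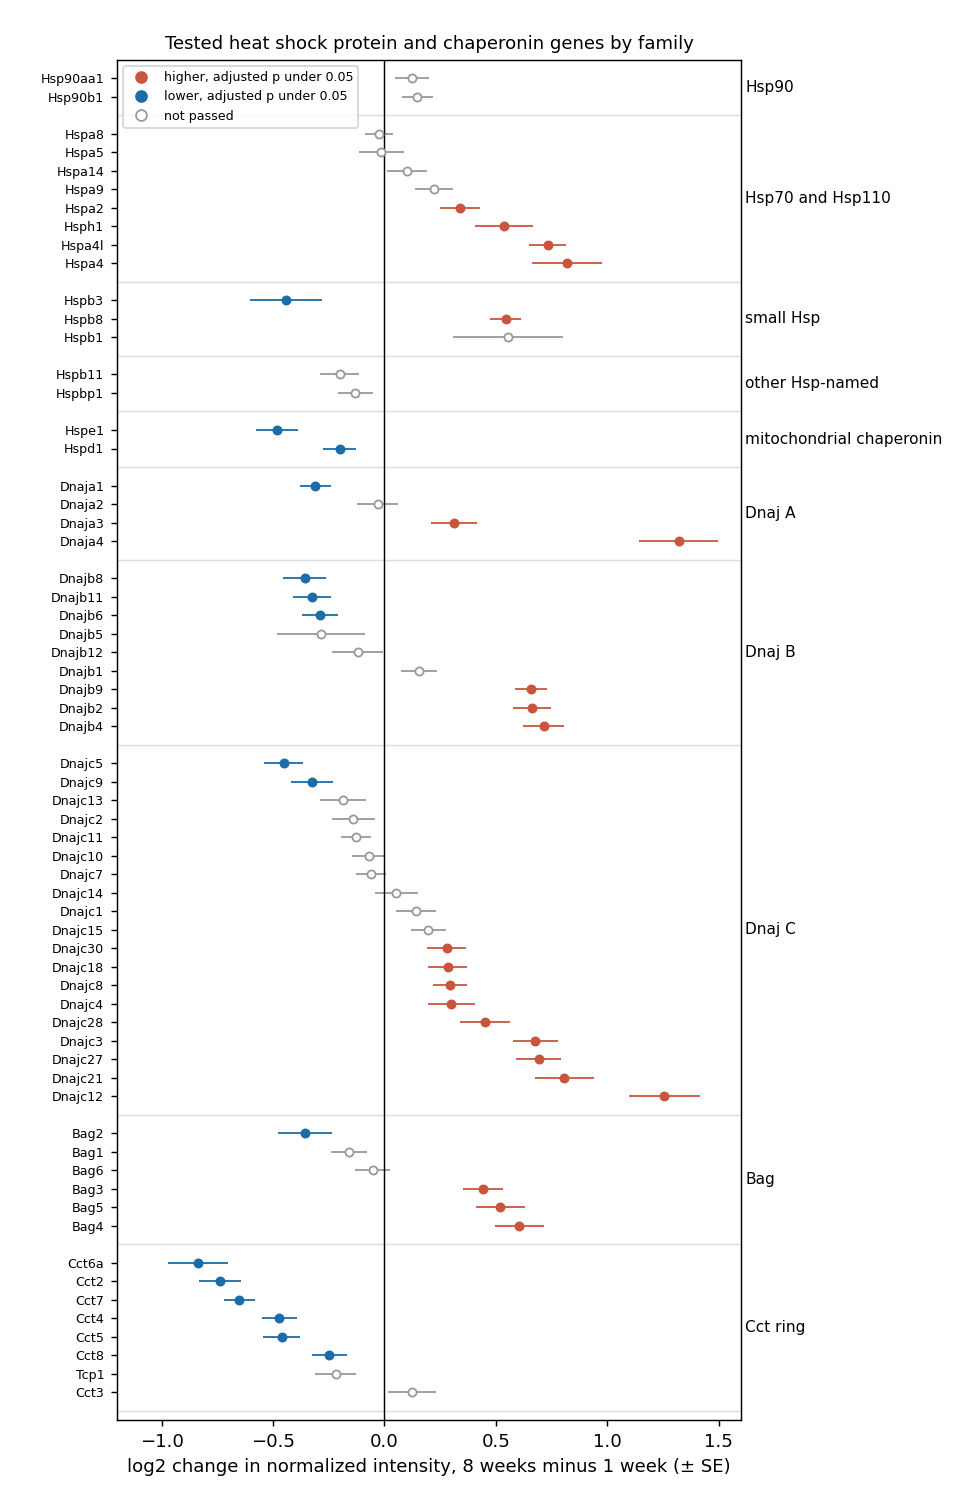
Change of each of the 63 tested genes between 1 and 8 weeks (log2, 8 weeks minus 1 week, quantile-normalized; bars are SE), in rows by family. Red points passed as higher, blue as lower and open grey points did not pass; the Cct ring lies between -0.84 and 0.12 and Dnaja4 is highest at 1.32, on a scale relative to the whole array.

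The ring of the cytosolic chaperonin was lower at 8 weeks in most of its subunits. The complex stacks 2 rings, each with 1 copy of every subunit, and Tcp1 encodes its alpha subunit. Of its 9 genes 8 were tested, 6 fell and 0 rose, beside 24% lower and 21.9% higher of all genes. The median change of the ring was -0.47. Cct6b, a form typical of testis, was too dim. Cct6a, the zeta subunit, read from 2203 to 3026 at 1 week with a median of 2523, and at 8 weeks 1039 and 1548 in arrays labelled female and 1736 and 1469 in those labelled male. Every 8-week array lay below every 1-week array, with replicate 1 labelled female lowest, and the gene fell by 0.84 ± 0.13 (limma, adjusted p = 6.5e-04). Cct2, the beta subunit, read from 1638 to 2211 at 1 week with a median of 2010, and 1103, 1215, 1277 and 1112 at 8 weeks. The ages did not overlap here either, the 8-week arrays lay close together, and the change was -0.74 ± 0.09 (adjusted p = 1.5e-04).

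The other subunits fell less far or did not pass. Cct7, the eta subunit, went from 1124 ± 61.3 (SD, n = 6) to 707 ± 31.6 (SD, n = 4), a change of -0.65 ± 0.07 (limma, adjusted p = 5.4e-05). The delta subunit Cct4 changed by -0.47 ± 0.08, the epsilon subunit Cct5 by -0.46 ± 0.08 and the theta subunit Cct8 by -0.25 ± 0.08. Cct4 had 5 tested probe sets, of which 3 fell and 2 did not pass (-0.04 and -0.13, with overlap between ages). Tcp1 read 1747 ± 150 (SD, n = 6) and 1498 ± 125.5 (SD, n = 4), a difference of -0.22 ± 0.09 that did not pass (adjusted p = 0.079). By their brightest probe sets all 6 subunits that fell had arrays that did not overlap between ages, beside 35.9% of all genes.

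Cct3, the gamma subunit, had probe sets that differed in outcome too. Its brightest probe set, which stood for the gene, read 1984 ± 306 (SD, n = 6) at 1 week and 2145 ± 138 (SD, n = 4) at 8 weeks, a difference of 0.12 ± 0.11 (limma, adjusted p = 0.377). Its 4 other tested probe sets all fell, by 0.26, 0.58, 0.47 and 0.26 on the log2 scale. With the mean of all its tested probe sets the gene changed by -0.29 (adjusted p = 0.0031). Over the ring, 16 of 20 tested probe sets were lower, beside 24% of all probe sets.

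The fall of the ring is a fall against the rest of the array. On the spike-in scale 3 subunits remained lower, Cct6a (-0.68), Cct2 (-0.58) and Cct7 (-0.46), and the ring's median was -0.28 beside 0.14 for all genes. On the deposited scale 0 of the ring fell and Cct3 was higher (0.64), with a ring median of 0.08 beside 0.47 for all genes. Cct4, Cct5 and Cct8 turned to 0.08, 0.09 and 0.28 on that scale and Cct6a kept its sign at -0.31 without passing (adjusted p = 0.117). Between 5 and 7 subunits fell when 1 array at a time was left out.

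**Figure D2:**
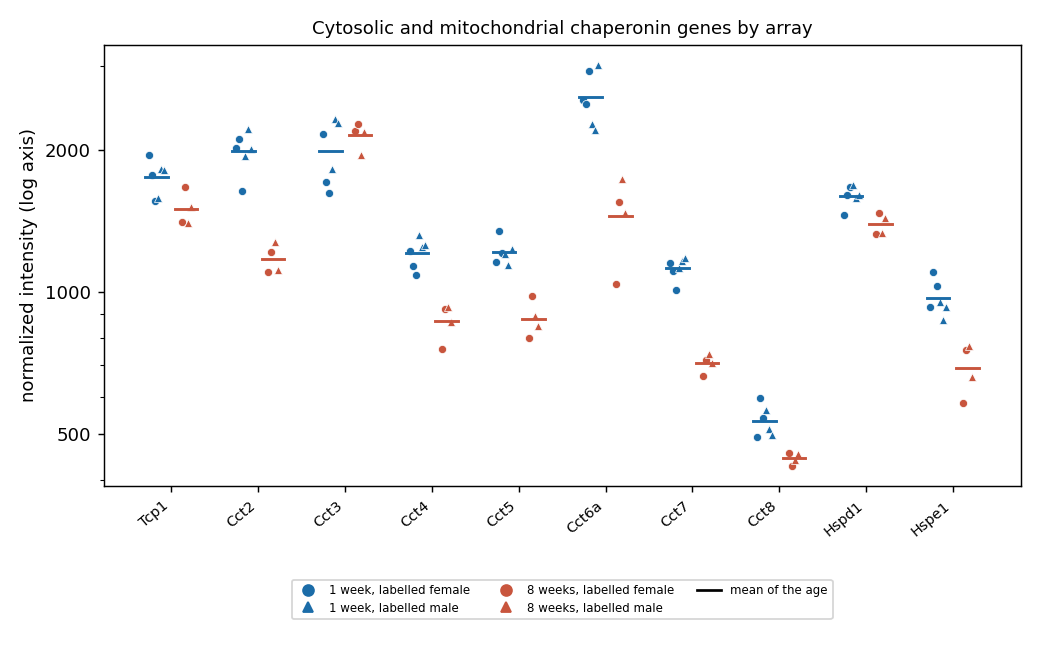
Normalized intensity (log axis) of the cytosolic ring genes and of the mitochondrial chaperonin genes Hspd1 and Hspe1 on each array, circles for the female label and triangles for the male label, blue at 1 week and red at 8 weeks, with lines at the mean of each age. All 8-week points lie below all 1-week points for 6 of the 8 ring genes tested, whereas Cct3 and Tcp1 overlap, on a scale relative to the whole array (Cct4, Cct5, Cct8, Hspd1 and Hspe1 turn to 0.08, 0.09, 0.28, 0.34 and 0.07 on the deposited scale); intensities of different genes are not comparable.

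The mitochondrial chaperonin, a barrel made by Hspd1 (Hsp60) with a lid made by Hspe1 (Hsp10), was also lower by the array-wide measure, in both genes. Hspe1 read from 874 to 1104 at 1 week with a median of 941, and at 8 weeks 581, 752, 768 and 660. All 8-week arrays lay below all 1-week arrays, and the gene changed by -0.48 ± 0.10 (limma, adjusted p = 0.0023). A further probe set of Hspe1 fell by 0.23. Hspd1 read from 1456 to 1681 at 1 week with a median of 1607, and 1327, 1470, 1331 and 1431 at 8 weeks. The ages overlapped, since replicate 1 labelled female at 1 week was below replicate 2 labelled female at 8 weeks, and the change of -0.20 ± 0.07 was at the edge of the threshold (adjusted p = 0.0488). It lost its call without any 1 of 9 of the 10 arrays (adjusted p from 0.0573 to 0.162 for those), and kept it only without replicate 1 labelled female at 1 week. Both genes turned positive on the deposited scale, Hspe1 to 0.07 and Hspd1 to 0.34, and neither passed on the spike-in scale.

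Within the Hsp70 and Hsp110 family 8 of 12 genes were tested, with a median change of 0.28. Here 4 rose, 0 fell and 4 did not pass, beside 21.9% higher and 24% lower of all genes. Hsp110 proteins serve as exchange factors for Hsp70 and help it take apart aggregates. The 3 genes of this branch that the rule on names took all rose, with a median of 0.73. Hspa4 read from 280 to 379 at 1 week with a median of 287, and at 8 weeks 433 and 760 in arrays labelled female and 614 and 442 in those labelled male. The ages did not overlap although the 8-week arrays spread widely, and the change was 0.82 ± 0.16 (limma, adjusted p = 0.0018). Within 1 week replicate 2 labelled female stood apart as the highest array. The 2 further probe sets of Hspa4 rose by 2.20 ± 0.15 and 0.64 ± 0.10. The size of the change differed between probe sets and the direction was the same. In the smaller fit without the 4 arrays opposing their sex label, the probe set with the larger rise was the brightest and the gene's change was 2.00.

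Hspa4l, the close relative of Hspa4, read from 329 to 408 at 1 week with a median of 365, and 654, 686, 652 and 528 at 8 weeks. No 8-week array came near the 1-week range, replicate 2 labelled male was the lowest of them, and the change was 0.73 ± 0.08 (limma, adjusted p = 6.1e-05). Its other probe set rose by 1.13 ± 0.08. Hsph1 (Hsp105), the heat-inducible member of the branch, went from 1011 ± 176 (SD, n = 6) to 1461 ± 110 (SD, n = 4), a change of 0.54 ± 0.13 (adjusted p = 0.0069). On the deposited and spike-in scales the branch rose too, with medians of 1.27 and 0.92.

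Among the Hsp70 genes proper, Hspa2, best known from male germ cells, rose by 0.34 ± 0.09 (limma, adjusted p = 0.0108). It read 197 ± 17.7 (SD, n = 6) and 256 ± 36.1 (SD, n = 4), and without replicate 1 labelled female at 8 weeks, which read 310.5, the change was 0.26 and did not pass (adjusted p = 0.0527). That array also stood apart in markers of other tissue, with a summed level of 3 pituitary markers of 13220 beside 951 to 4534 on the other 8-week arrays and of 3 choroid plexus markers of 3961 beside 8189 to 8965. The part of these levels in the result was not tested. The main Hsp70s of the cytosol, the endoplasmic reticulum and the mitochondrion did not pass. Hspa8 (Hsc70) of the cytosol read 5162 ± 100 (SD, n = 6) and 5082 ± 127 (SD, n = 4), a difference of -0.02 ± 0.06, although a dimmer probe set of it fell by 0.37 ± 0.12. Hspa5 (BiP), the Hsp70 of the endoplasmic reticulum, differed by -0.01 ± 0.10. Hspa9 (mortalin), that of the mitochondrion, differed by 0.22 ± 0.09 (adjusted p = 0.058).

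The heat-inducible Hsp70 genes Hspa1a and Hspa1b were below the filter. On Hspa1b 3 probe sets read 41.6 ± 11, 38.5 ± 9.01 and 26.7 ± 6.16 at 1 week (SD, n = 6) and 90.6 ± 2.93, 101 ± 17.3 and 51.0 ± 11.6 at 8 weeks (SD, n = 4). With no filter on dim probe sets these differences were 0.82, 1.00 and 0.56, and each passed over all probe sets (limma, adjusted p = 0.0016, 6.9e-04 and 0.0094). The probe set of Hspa1a read 65.4 ± 14.5 (SD, n = 6) and 85.5 ± 7.71 (SD, n = 4) and did not pass (adjusted p = 0.067). Both genes encode nearly the same protein, so their probes may read each other's RNA, and values this low are close to the background of the array.

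**Figure D3:**
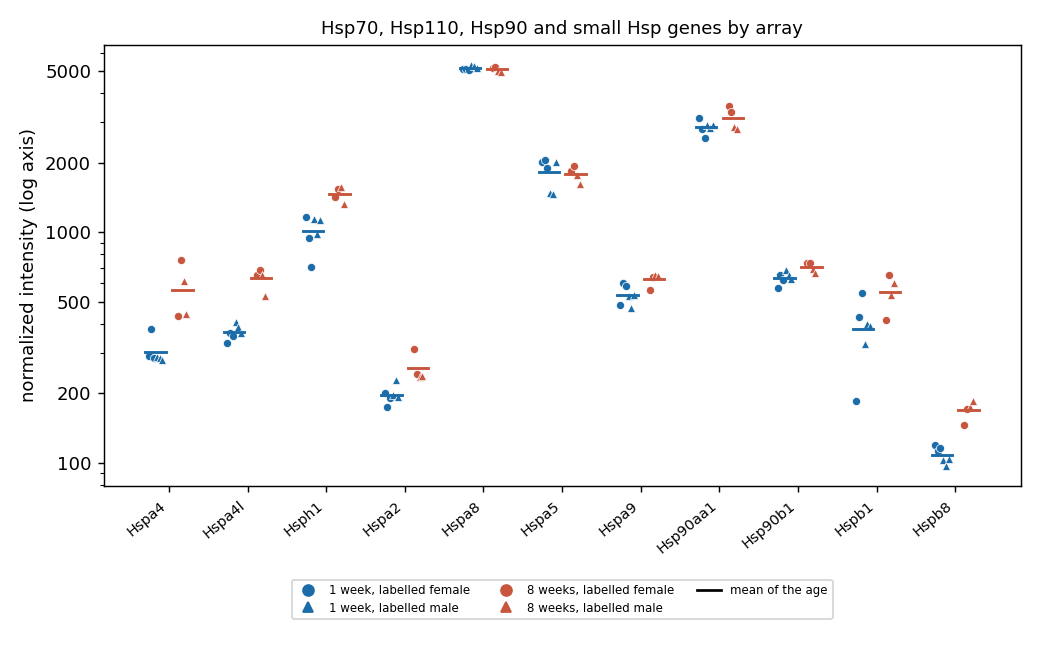
Normalized intensity (log axis) of Hsp110, Hsp70, Hsp90 and small Hsp genes on each array, circles for the female label and triangles for the male label, blue at 1 week and red at 8 weeks, with lines at the mean of each age. The ages are apart for Hspa4, Hspa4l, Hsph1, Hspa2 and Hspb8 and overlap for Hspa8, Hspa5, Hspa9, Hsp90aa1, Hsp90b1 and Hspb1; intensities of different genes are not comparable.

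Neither Hsp90 gene on the list passed. Hsp90aa1, the inducible cytosolic form, read 2854 ± 188 (SD, n = 6) and 3120 ± 361 (SD, n = 4), a difference of 0.12 ± 0.08 (limma, adjusted p = 0.219). Hsp90b1 (Grp94), the form of the endoplasmic reticulum, differed by 0.15 ± 0.07 (adjusted p = 0.114). Their 3 further probe sets differed by 0.01 to 0.04 and did not pass. Both genes passed as higher on the deposited scale, Hsp90aa1 at 0.58 and Hsp90b1 at 0.70, with all genes at a median of 0.47.

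Small heat shock proteins gave 3 tested genes, and their directions were mixed. Hspb8, which works with Bag3 to send misfolded proteins to autophagy, read from 97.1 to 120 at 1 week with a median of 109, and 146, 172, 175 and 185 at 8 weeks. Every 8-week array was above every 1-week array, and the change was 0.54 ± 0.07 (limma, adjusted p = 1.7e-04). A further tested probe set differed by 0.15 ± 0.11 and did not pass, while another, below the filter, read 14.9 ± 6.01 (SD, n = 6) and 81.7 ± 22.7 (SD, n = 4).

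Hspb1 (Hsp27), an actin-binding small Hsp, read from 186 to 545 at 1 week with a median of 396, and 416, 650, 536 and 599 at 8 weeks. The ages overlapped, since replicates 2 and 3 labelled female at 1 week (428 and 545) were above the lowest 8-week array. Replicate 1 labelled female was the lowest at 1 week, and the difference of 0.55 ± 0.25 did not pass (limma, adjusted p = 0.093). With 1 array at a time left out the difference ran from 0.34 to 0.71 (adjusted p from 0.0271 to 0.287). It passed only without replicate 3 labelled female at 1 week, at 0.70 (adjusted p = 0.0271). In this replicate 3 the summed level of 3 meningeal or fibroblast markers was 5060. The other 1-week arrays had 903 to 2231, and those at 8 weeks 362 to 506. The part of that level in the result was not tested.

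Hspb3, best known from muscle, read from 61.6 to 139 at 1 week with a median of 109, and 63.7, 64.9, 74.2 and 86.0 at 8 weeks. The ages overlapped through replicate 3 labelled female, the lowest array of all, and the change of -0.44 ± 0.16 barely passed (limma, adjusted p = 0.0459). It lost its call without any 1 of 8 arrays (without these, adjusted p from 0.0654 to 0.127), kept it without replicate 3 labelled female or replicate 2 labelled male at 1 week, and was -0.03 on the deposited scale. The remaining Hsp-named genes, Hspb11, which belongs to the transport machinery of cilia, and Hspbp1, an exchange factor for Hsp70, differed by -0.20 and -0.13 and did not pass.

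J domain proteins were the largest group, with 38 genes on the array and 32 tested. Those of type A, built like the bacterial DnaJ, gave 2 genes higher and 1 lower of 4, beside 21.9% and 24% of all genes. Dnaja4, a cytosolic member, had the steepest rise of all 63 genes. It read from 65.1 to 155 at 1 week with a median of 116, and 341, 302, 314 and 291 at 8 weeks. No array of one age came near the other, replicate 3 labelled female was lowest at 1 week, and the change was 1.32 ± 0.18 (limma, adjusted p = 2e-04). Its 2 other probe sets rose by 1.44 ± 0.10 and 1.17 ± 0.12.

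Dnaja3 (Tid1), the mitochondrial partner of Hspa9, read from 164 to 248 at 1 week with a median of 220, and 259, 292, 287 and 252 at 8 weeks. The ages lay side by side without overlap, replicate 2 labelled male being the lowest at 8 weeks, and the change was 0.31 ± 0.10 (limma, adjusted p = 0.0307). It lost its call without any 1 of 5 arrays, which were replicate 2 labelled female and replicates 1 and 2 labelled male at 1 week, and replicate 2 labelled female and replicate 1 labelled male at 8 weeks (adjusted p from 0.0546 to 0.106). A second probe set rose by 0.43. Dnaja1, the common partner of Hspa8, fell by 0.31 ± 0.07 (adjusted p = 0.0042) from 2412 ± 90.9 (SD, n = 6) to 1942 ± 94.9 (SD, n = 4), and its sign turned on the deposited scale (0.21). Dnaja2 did not pass by its brightest probe set (-0.03), while the other rose by 0.30 ± 0.08.

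Of type B, J proteins that lack the zinc finger of type A, 9 of 12 genes were tested. In this type 3 rose and 3 fell, beside 21.9% higher and 24% lower of all genes. Dnajb4, a cytosolic J protein, read from 201 to 312 at 1 week with a median of 262, and 424, 445, 437 and 454 at 8 weeks. The 8-week arrays were all higher and nearly alike, and the change was 0.71 ± 0.09 (limma, adjusted p = 1.7e-04). Dnajb2 (Hsj1), a J protein rich in neurons that delivers clients to the proteasome, read from 345 to 450 at 1 week with a median of 374, and 581, 639, 671 and 598 at 8 weeks. It too had no overlap between ages, and the change was 0.66 ± 0.09 (adjusted p = 1.6e-04).

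The other called genes of type B went both ways, also within the endoplasmic reticulum. Dnajb9 (ERdj4), a partner of BiP, rose by 0.66 ± 0.07 from 550 ± 33.6 (SD, n = 6) to 881 ± 32.8 (SD, n = 4), whereas Dnajb11 (ERdj3), another partner of BiP, fell by 0.33 ± 0.09. Dnajb6, which keeps aggregation-prone proteins soluble, fell by 0.29 ± 0.08 from 1416 ± 110 (SD, n = 6) to 1151 ± 37.3 (SD, n = 4). Of its 3 tested probe sets 2 fell and 1 did not pass (-0.03). Without replicate 2 labelled male at 8 weeks the adjusted p of the gene was 0.0533 (limma). Dnajb8, known from testis, fell by 0.36 ± 0.09 and lost its call without replicate 2 labelled female at 8 weeks (adjusted p = 0.0540). The 3 falls turned to 0.17, 0.24 and 0.06 on the deposited scale for Dnajb11, Dnajb6 and Dnajb8. Dnajb1 (Hsp40), the classic inducible partner of Hsp70, differed by 0.15 ± 0.08 and did not pass.

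Type C, J proteins that share only the J domain, held 22 genes, of which 19 were tested, with a median change of 0.20. Among the tested genes 9 rose, 2 fell and 8 did not pass, beside 21.9% higher and 24% lower of all genes. Dnajc12, a partner of the enzymes that hydroxylate aromatic amino acids on the way to dopamine and serotonin, read from 109 to 216 at 1 week with a median of 146, and 342, 428, 348 and 432 at 8 weeks. All 8-week arrays were well above the 1-week range, and the change was 1.26 ± 0.16 (limma, adjusted p = 1.5e-04). Dnajc21, a factor in making the large ribosomal subunit, read from 85.3 to 154 at 1 week with a median of 98.1, and 161, 246, 239 and 202 at 8 weeks. The ages did not overlap, though replicate 1 labelled female at 8 weeks was close to replicates 2 and 3 labelled female at 1 week, and the change was 0.81 ± 0.13 (adjusted p = 7.3e-04).

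Further rises of type C were Dnajc27, which joins a small GTPase to a J domain (0.69 ± 0.10), and Dnajc3 (p58IPK), an inhibitor of the kinase PERK and a partner of BiP (0.68 ± 0.10). The ages did not overlap for either. Of 4 tested probe sets of Dnajc3 the brightest and 1 other (0.50) rose, and the remaining 2 did not pass (-0.03 and 0.24). Dnajc8, a splicing factor, rose by 0.30 ± 0.08 with some overlap.

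The falls of type C were Dnajc5 and Dnajc9. Dnajc5 encodes cysteine string protein, which keeps synaptic vesicle fusion proteins folded at nerve endings. It went from 1489 ± 147 (SD, n = 6) to 1082 ± 100 (SD, n = 4), a change of -0.45 ± 0.09 (limma, adjusted p = 0.0021), and 3 of its 5 tested probe sets fell while the other 2 differed by -0.23 and -0.07 without passing. Dnajc9, a chaperone of histones, fell by 0.32 ± 0.09 (adjusted p = 0.0165) and lost its call without replicate 1 labelled female at 8 weeks (-0.23) or without replicate 1 labelled male at 8 weeks (-0.27). Dnajc9 changed by -0.58 ± 0.13 in arrays labelled female and by -0.07 ± 0.13 in those labelled male. Its interaction of age and label did not pass (limma, adjusted p = 0.907). Dnajc5 and Dnajc9 turned to 0.09 and 0.17 on the deposited scale.

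**Figure D4:**
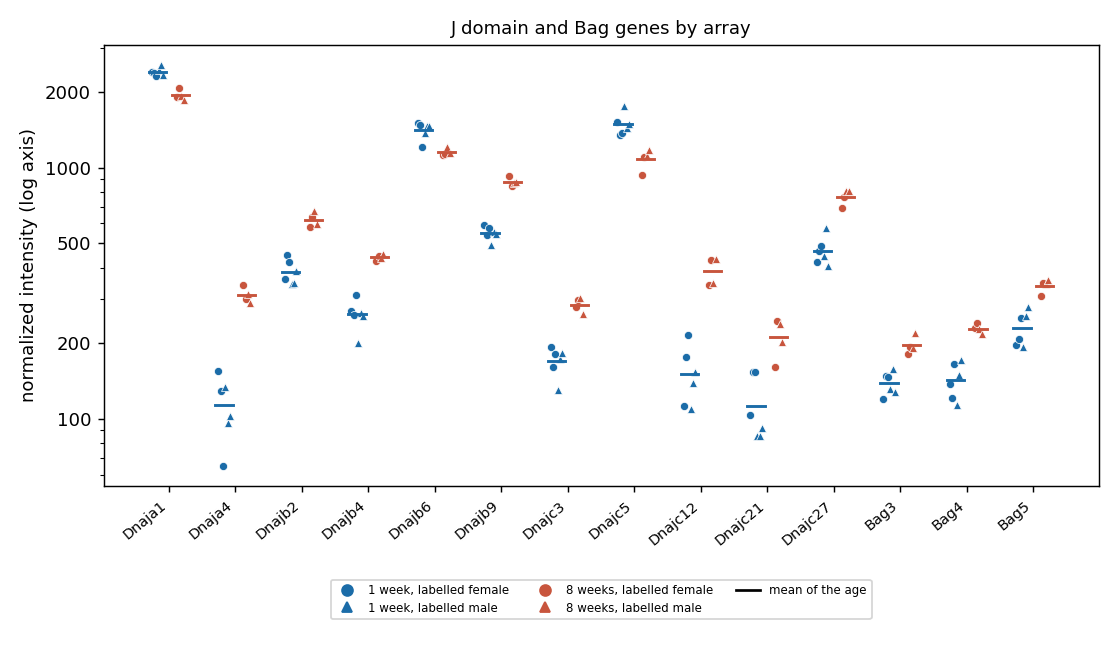
Normalized intensity (log axis) of J domain and Bag genes on each array, circles for the female label and triangles for the male label, blue at 1 week and red at 8 weeks, with lines at the mean of each age. Dnaja4, Dnajb2, Dnajb4, Dnajb9, Dnajc3, Dnajc12, Dnajc21, Dnajc27, Bag3, Bag4 and Bag5 are higher at 8 weeks and Dnaja1, Dnajb6 and Dnajc5 lower relative to the whole array, without overlap between ages; the 3 falls turn to rises on the deposited scale (0.21, 0.24 and 0.09).

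The Bag genes, whose proteins release clients from Hsp70 and steer them to other fates, were all tested. Among these 6 genes 3 rose and 1 fell, beside 21.9% higher and 24% lower of all genes. Bag4, also known as a silencer of death receptors, read from 114 to 171 at 1 week with a median of 144, and 230, 241, 227 and 217 at 8 weeks. The 8-week arrays were all higher, and the change was 0.61 ± 0.11 (limma, adjusted p = 0.0015). Bag5, which carries several Bag domains, read from 193 to 278 at 1 week with a median of 230, and 309, 348, 344 and 356 at 8 weeks. It rose in the same way, without overlap, by 0.52 ± 0.11 (adjusted p = 0.0033).

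Bag3, the partner of Hspb8 in autophagy, rose by 0.44 ± 0.09 from 139 ± 14.0 (SD, n = 6) to 197 ± 16.7 (SD, n = 4). Bag2, which holds back the ubiquitin ligase that works with Hsp70, fell by 0.36 ± 0.12 (limma, adjusted p = 0.0348). That call was lost without any 1 of 5 arrays, which were replicate 2 labelled female and replicates 1 and 3 labelled male at 1 week and the 2 arrays numbered 2 at 8 weeks (adjusted p from 0.0537 to 0.134), and the sign turned on the deposited scale (0.11). Bag1 differed by -0.16 ± 0.08 and did not pass.

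The counts by compartment stand beside 21.9% of all genes higher and 24% lower. The cytosol and nucleus held 38 tested genes, of which 13 rose and 11 fell. Without the Cct ring these became 13 and 5 of 30, with a median change of 0.14. In the endoplasmic reticulum 2 of 9 rose (Dnajb9 and Dnajc3), 1 fell (Dnajb11) and 6 did not pass, the abundant BiP and Grp94 among them. In the mitochondrion 2 of 7 rose (Dnaja3 and Dnajc30) and 2 fell (Hspd1 and Hspe1). On vesicles 1 of 2 fell (Dnajc5), and of 7 tested genes with no compartment assigned 5 rose and 1 fell. In no compartment did a gene fall on the deposited scale, where 4.49% of all genes did.

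**Figure D5:**
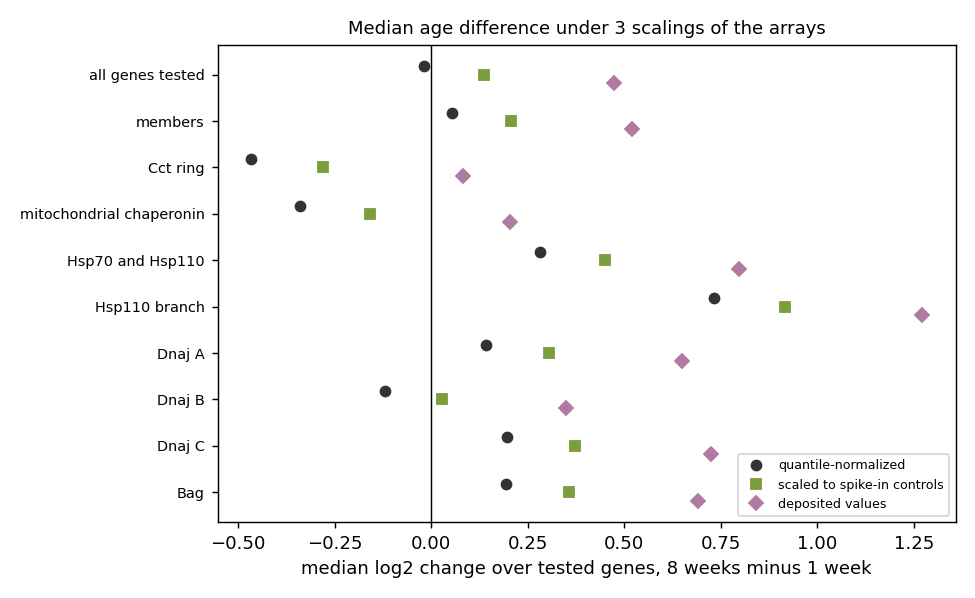
Median change of families and of all genes (log2, 8 weeks minus 1 week) under quantile normalization, on the spike-in scale and on the deposited scale. Hsp90, small Hsp and other Hsp-named genes are not drawn. The Cct ring moves from -0.47 through -0.28 to 0.08 and the Hsp70 and Hsp110 family from 0.28 through 0.45 to 0.80, while the median of all genes moves from -0.02 through 0.14 to 0.47.

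The scaling plot shows how far the median of each family drawn followed the whole array. A change of scale moves all genes nearly alike, so a family's place relative to the median of all genes is close to fixed by it.

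Genes that work beside these chaperones were taken from a list of 62, of which 56 were on the array and 52 tested. Of these 14 rose, 14 fell and 24 did not pass, beside 21.9% higher and 24% lower of all genes. Their median change was -0.01. On the deposited scale 36 rose and 1 fell, beside 64.6% and 4.49% of all genes. Without replicate 2 labelled male at 8 weeks 9 of them rose, beside 1496 of all 8166 genes. The tubulin cofactors, which take tubulin from the Cct ring and pair its chains, gave 3 falls of 5 tested: Tbca by 0.90 ± 0.07, Tbcb by 0.68 ± 0.07 and Tbcd by 0.53 ± 0.07. Tbca read 1809 ± 53.9 (SD, n = 6) at 1 week and 960 ± 72.1 (SD, n = 4) at 8 weeks. Those falls are relative to the whole array too: on the deposited scale Tbca was lower (-0.35), Tbcb kept its sign and did not pass (-0.13, limma, adjusted p = 0.404) and Tbcd turned to 0.02. After spike-in scaling Tbcd did not pass (-0.34, adjusted p = 0.128). Over the cofactors the deposited scale gave 2 higher and 1 lower.

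Prefoldin and its relatives, which bring actin and tubulin to the ring, had 7 tested genes. In this set 1 rose and 1 fell, beside 21.9% higher and 24% lower of all genes. Pfdn2 rose by 1.03 ± 0.09 on the log2 scale. Pfdn1 fell by 0.43 ± 0.09, but turned to 0.06 on the deposited scale and did not pass on the spike-in scale (-0.27, limma, adjusted p = 0.236). Of the factors that control heat shock transcription only Hsbp1, a small inhibitor of heat shock factor, was tested of 3 on the array, and it fell by 0.78 ± 0.08, to -0.28 without passing on the deposited scale (limma, adjusted p = 0.072). Btf3, a part of the complex that shields new chains at the ribosome, fell by 0.68 ± 0.09 and did not pass on the deposited scale (-0.13). Among the other rises were Sgtb, an Hsp70 co-chaperone (0.99 ± 0.10), Cdc37l1, a relative of the Hsp90 partner Cdc37 (0.66 ± 0.09), and Cryab, a small heat shock protein whose symbol lies outside the rule (2.72 ± 0.17).

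Within arrays labelled female 16 of the 63 genes were higher and 9 lower at 8 weeks, beside 29.9% of all genes called (14% higher and 16% lower). Within those labelled male the counts were 16 and 8, beside 31.9% (15.4% and 16.5%). For the interaction of age and label 0 of the 63 genes passed (limma, smallest adjusted p = 0.907), beside 0% of all genes, and 5 of the 63 had an unadjusted p under 0.05. At 8 weeks, where the labels match the sex markers, 0 of 63 differed between labels, beside 0% of all genes, with 2 at an unadjusted p under 0.05. Fitted on the 8-week arrays alone 0 of 64 passed, with 1 under that unadjusted limit. With 2 arrays per label this gives little power.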

How the data were processed

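Brain RNA from C57BL/6 mice was read on 10 MOE430A arrays. The authors deposited 1 linear intensity per probe set and array, and their summarisation software is not given in the sources used here. Of 22690 probe sets 64 were controls and 22626 were kept. Intensities were quantile-normalized, 24 (the 20th percentile) was added, and log2 was taken. Probe sets under the 40th percentile of mean log2 were left out, leaving 13576 (dimmest mean 74.5) and 8148 genes. A gene's value came from the brightest of its uniquely annotated probe sets, by GEO's platform annotation. The linear model (limma 3.58.1 under R 4.3.3, lmFit then eBayes) had a term for each of the 4 groups, and tests were two-sided with Benjamini-Hochberg adjustment over all genes or probe sets at 0.05. The members, gene lists and tests were chosen with earlier results of these data known. Named genes were each family's brightest member, its up to 4 largest called changes and up to 2 in the other direction, and up to 4 rises and 4 falls among partners. Others named, such as Tbcd, Pfdn1, Hspa1a, Hspa1b, Dnaja2 and Dnajc30, and the further genes of small counts, were chosen after their values were seen. Compartments were assigned from textbook knowledge. The number of arrays limits the precision: in simulated data of 13576 probe sets, the fit called 6%, 58%, 84% and 90% of 50 each at true log2 shifts of 0.25, 0.5, 1 and 2. Only these probe sets were shifted there, whereas 46% of all probe sets were called in the real data. The adjusted threshold was therefore stricter in the simulation, and its rates are not those of the real fit. Alternatives were other pseudocounts, scalings, filters, models, weights and each array left out. Left out were 2 probe sets whose several symbols include a J protein.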

Additional observations from a re-analysis of the deposited data

Results flagged for a closer look

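In 74 groups of arrays, 1 age of 1 named gene each, 4 had an array whose gap to the next passed Dixon's 95% limit, and chance alone gives about 1 in 20 groups. For Hspa4 at 1 week, replicate 2 labelled female read 379.2 beside 280.1 to 290.9 on the other 5 arrays. For Hspa2 at 8 weeks, replicate 1 labelled female read 310.5 beside 235.9 to 241.7. For Dnajb8 at 8 weeks, the same array read 95.79 beside 75.55 to 76.3. On that array the summed pituitary markers were 13220 (951 to 4534 on the other 8-week arrays) and choroid plexus markers 3961 (8189 to 8965), and their part in these readings was not tested. For Dnajc8 at 1 week, replicate 3 labelled female, which carried transcripts of both sex chromosomes, read 1502 beside 1228 to 1283. Of these genes Hspa2 lost its call without the array named.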

How the results depend on the processing

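Scaling moved the counts most. On the deposited scale member probe sets gave 73 higher and 0 lower, genes 42 and 0, and partner genes 36 and 1, as the whole array stood 0.47 higher. Spike-in scaling left 3 probe sets, 3 genes and 4 partner genes lower. Of the 16 genes that fell 12 turned sign on the deposited scale, Cct5 (0.09), Cct8 (0.28) and Dnajb11 (0.17) among them. Other turned signs, falls or not, included Hspa8 (0.36), Hspbp1 (0.40), Hspd1 (0.34), Hspe1 (0.071), Dnaja1 (0.21), Dnajb6 (0.24), Dnajb8 (0.058), Dnajc5 (0.087), Dnajc9 (0.17), Bag1 (0.40), Bag2 (0.11) and Cct4 (0.079). Cct3 turned sign with the mean of its probe sets (-0.29). With age alone and without the 4 arrays opposing their sex label, a fit on fewer samples, 16 probe sets and 7 genes were lower, and 8 partner genes were higher and 8 lower. Of all 8143 genes 1266 were higher and 1154 lower in that fit. Within labels, on fewer samples too, 9 (female) and 8 (male) genes were lower. Leaving out 1 array at a time gave 27 to 35 probe sets higher and 20 to 32 lower, 18 to 23 genes higher and 11 to 16 lower, and 9 to 13 partner genes higher and 11 to 14 lower. Probe sets lower were 21 without replicate 2 labelled female and 20 without replicate 2 labelled male at 8 weeks, and partner genes higher were 9 without the latter. Whether replicate numbers pair the samples was not tested. Deviations of 13 same-number pairs correlated weakly, from -0.025 to 0.193, with 5 of them over 0.1. Within the same age, 6 of 10 arrays correlated best with their own number in the other label. With the replicate number as a block 20 genes were higher and 15 lower, 33 and 29 probe sets and 11 and 13 partner genes; Hspb1 then passed (0.72), and Hspd1 (-0.18) and Dnaja3 (0.28) did not. Shifts of log2 0.25 were called in 6% of cases in simulated data, where few probe sets were shifted and the adjusted threshold was stricter than here.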
